A study of Mus musculus with 9 samples.

Results

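The interleukin-6 family of cytokines, its receptors and its intracellular response genes were followed in mouse primary calvarial pre-osteoblasts that overexpressed HIF-1α or HIF-2α. The 10 genes, chosen by their symbols in the count tables, were the ligands Il6, Lif, Il11 and Clcf1, the receptor chains Il6st, Il6ra, Lifr and Osmr, the feedback inhibitor Socs3 and the transcription factor Stat3. The choice was made with earlier results of these data known. They are 10 of the 40213 symbols counted, and all 10 were among the 14413 genes with enough counts to be tested. The cells came from 3-day-old wild-type pups and were kept until day 6 in osteogenic medium, which contained L-AA (50 μg/ml) together with β-Gp (5 mM). A control virus (Ad-C), a virus for Hif1a (Ad-Hif1a) or a virus for Hif2a, the gene listed as Epas1 (Ad-Hif2a), all adenoviruses, was added on day 3. Total RNA gave 3 libraries per group, with 14372589 to 18623403 counts each. The study asked which transcripts each of these factors regulates during osteoblast differentiation. Both factors were raised from vectors, so the groups stand for overexpression, and every group carried an adenovirus. The labels do not say whether replicates came from separate cultures, so the p-values measure only the spread between these samples.

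Most cytokines of the interleukin-6 family signal through receptor complexes that contain gp130, the product of Il6st. Interleukin-6 and interleukin-11 first bind a chain of their own (Il6ra, Il11ra1), whereas LIF brings gp130 together with the LIF receptor and oncostatin M brings it together with the oncostatin M receptor. Clcf1 encodes a cardiotrophin-like cytokine that acts through the ciliary neurotrophic factor receptor. Janus kinases on these chains activate STAT3, which switches on Socs3, and SOCS3 in turn blocks gp130. In bone, osteoblast-lineage cells both make and answer these cytokines, which act on bone formation and on the support of osteoclasts.

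Promoters of the 3 members that rose in both comparisons with Ad-C are shown because these members moved together. Each is the run of 250 bases just before the RefSeq start on GRCm38.p6, an earlier build than the GRCm39 of the counts, and capitals mark motif matches on either strand.
Il6, chr5:30012864-30013113, plus strand: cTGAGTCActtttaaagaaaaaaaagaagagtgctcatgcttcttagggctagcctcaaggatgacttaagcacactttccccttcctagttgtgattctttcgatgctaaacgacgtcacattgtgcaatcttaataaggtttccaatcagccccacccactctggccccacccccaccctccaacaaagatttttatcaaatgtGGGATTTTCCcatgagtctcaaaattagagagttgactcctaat
Lif, chr11:4257318-4257567, plus strand: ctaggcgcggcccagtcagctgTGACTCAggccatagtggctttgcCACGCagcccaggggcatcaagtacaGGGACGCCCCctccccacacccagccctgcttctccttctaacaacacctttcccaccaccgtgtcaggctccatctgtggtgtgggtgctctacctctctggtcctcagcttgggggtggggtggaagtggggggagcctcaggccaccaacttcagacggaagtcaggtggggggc
Socs3, chr11:117969367-117969616, minus strand: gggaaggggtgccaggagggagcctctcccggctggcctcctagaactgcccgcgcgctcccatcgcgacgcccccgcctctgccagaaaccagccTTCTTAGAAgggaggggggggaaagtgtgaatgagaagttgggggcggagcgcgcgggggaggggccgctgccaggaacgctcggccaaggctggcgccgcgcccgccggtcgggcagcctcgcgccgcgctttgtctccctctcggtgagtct
In Il6 the capitals mark an AP-1 match (TGAGTCA, 249 to 243 bases before the start) and an NF-kB consensus match (GGGATTTTCC, 44 to 35 bases before it). In Lif they mark an AP-1 match (TGACTCA, 228 to 222 bases), the hypoxia response element (HRE) core read on the other strand (CACGC, 204 to 200 bases) and an NF-kB consensus match (GGGACGCCCC, 178 to 169 bases). Socs3 held a STAT match (TTCTTAGAA, 154 to 146 bases). No matches overlapped in these 3 windows.

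Over all 32851 RefSeq promoters of this length, the HRE core (ACGTG or GCGTG) was found in 38.6%, the STAT motif (TTCNNNGAA) in 7.02%, the NF-kB consensus in 7.25%, the AP-1 motif (TGANTCA) in 6.75% and the CRE (TGACGTCA) in 1.55%. Of the 9 members with a RefSeq promoter, 3 held the HRE core (Lif, Il6ra and Lifr), 3 held AP-1 (Il6, Lif and, at another start, Il11), 2 held the NF-kB consensus and 1 held the STAT motif. None held the CRE. Clcf1 was the member without an entry. The matches describe letters in these windows and nothing about binding.

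The genes carried by the vectors matched the labels. Hif1a rose from 190 ± 3.45 CPM (counts scaled to library size by TMM, mean ± SD, n = 3) in Ad-C to 1831 ± 549 in Ad-Hif1a, and Epas1 rose from 45.9 ± 3.59 to 1666 ± 736 in Ad-Hif2a. Each vector also came with more of the other transcript, with Epas1 at 524 ± 140 CPM in Ad-Hif1a and Hif1a at 536 ± 76.5 in Ad-Hif2a. Within its own group, Ad-Hif1a replicate 1 had the lowest Hif1a (1240 CPM) and Ad-Hif2a replicate 3 the lowest Epas1 (823 CPM, against 1996 and 2181). For the members and for some of the lists, results are also given without 1 or both of these libraries. Osteoblast markers were abundant, at 45163 to 63305 CPM in sum over 10 genes, and the 14 macrophage markers summed to 3363 to 3601 CPM in Ad-C, so the cultures also held macrophage transcripts. Of the osteoblast list 3 fell in Ad-Hif1a (5.22% of all genes tested did) and 5 in Ad-Hif2a (7.72% did), and none rose. These counts depended on single libraries: no osteoblast marker fell in either comparison without Ad-C replicate 1 or Ad-C replicate 3, nor in Ad-Hif1a without its replicate 2, while 1 fell in Ad-Hif1a without its replicate 1. Omitting Ad-C replicate 2 left 1 and 2 falls, omitting Ad-Hif2a replicate 1 left 2 in Ad-Hif2a, and omitting Ad-Hif2a replicate 3 gave 7 falls in Ad-Hif1a and 6 falls with 1 rise in Ad-Hif2a. Lymphocyte markers were scarce (at most 3.53 CPM in sum), with Cd4 falling in the full fit and in 14 and 15 of 18 alternative settings. Endothelial markers were scarce too (at most 7.79 CPM), with 0 called in Ad-Hif1a and 2 rises and 1 fall in Ad-Hif2a. None of these endothelial markers was called without any 1 of the Ad-C libraries or Ad-Hif2a replicate 1. Skeletal muscle markers summed to 53.0 to 64.3 CPM in Ad-C, mostly from Myh1 (57.7 ± 5.16 CPM). In Ad-Hif1a and Ad-Hif2a, Myh1 fell by 4.63 and 5.35 on the log2 scale, and Acta1 rose by 3.22 and 2.47. In bulk RNA, fewer cells of a type and less RNA per cell cannot be told apart.

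All 4 ligands were higher in every Ad-Hif1a and every Ad-Hif2a library than in any Ad-C library, and Il6 and Lif passed the test in both comparisons. In Ad-Hif2a all 4 ligands rose, whereas in Ad-Hif1a Il11 and Clcf1 missed the threshold. A rise or fall means an adjusted p under 0.05 in edgeR's quasi-likelihood test, with Benjamini-Hochberg adjustment over the 14413 genes. Of those genes, 6.04% rose and 5.22% fell in Ad-Hif1a (11.3% called), and 7.87% rose and 7.72% fell in Ad-Hif2a (15.6% called), whereas 24.5% and 24% of them stood above Ad-C with no overlap. Because the ligands were chosen with earlier results known, these shares describe them and give no independent test. Of the 4 other family ligands tested, none rose or fell in either comparison. Transcripts of 2 neutrophil markers, S100a8 and Camp, rose beside the ligands in both comparisons, and the 8 markers of that list summed to 2.82 to 3.93 CPM in Ad-C, 7.14 to 9.57 in Ad-Hif1a and 9.60 to 15.9 in Ad-Hif2a. In Ad-C, S100a8 was at 0.0187 ± 0.0324 CPM and Camp at 0.0719 ± 0.0815. Both passed the filter for testing only through the vector groups, where they were high, so a fall could not have been called. The S100a8 call in Ad-Hif1a held in 17 of 18 alternative settings. Only 3 of the 8 were tested, and the third, Csf3r, lay lower with the vectors without being called. It was at 3.08 ± 0.585 CPM in Ad-C, 2.31 ± 0.213 in Ad-Hif1a and 1.88 ± 0.631 in Ad-Hif2a. Of that list, S100a9 and Ngp had no read in any library and Elane had 3 reads over all 9.

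Il6 encodes interleukin-6, the cytokine that names the family. Its counts in Ad-C were 0, 9 and 4 reads, or 0, 0.505 and 0.214 CPM, where 3 reads are worth 0.160 to 0.168 CPM. Il6 thus passed the filter for testing only through the vector groups. The Ad-Hif1a libraries held 29.0, 35.5 and 38.8 CPM and the Ad-Hif2a libraries 146.8, 64.0 and 76.98 CPM. The 3 groups did not overlap, and Ad-Hif2a replicate 1 was highest of all. In Ad-Hif1a, Il6 rose by 7.13 on the log2 scale with an SE of 0.69 (adjusted p = 0.00122). In Ad-Hif2a it rose by 8.57 with an SE of 0.71 (adjusted p = 0.000557). The size of these fold changes rests on 13 reads in the control group, and leaving out 1 library at a time moved them between 6.45 and 8.34 for Ad-Hif1a and between 7.84 and 9.75 for Ad-Hif2a.

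Lif encodes leukemia inhibitory factor. It was even across Ad-C, at 2.59, 2.58 and 2.57 CPM. Ad-Hif1a gave 11.2, 13.4 and 15.2 CPM, and Ad-Hif2a gave 45.5, 27.2 and 18.9 CPM, with replicate 3 lowest. The groups again stood apart from each other. The rise of Lif was 2.38 on the log2 scale in Ad-Hif1a (adjusted p = 0.0055, SE 0.33) and 3.52 in Ad-Hif2a (adjusted p = 0.00104, SE 0.34). With 1 library left out at a time, the adjusted p of Lif reached 0.0497 in Ad-Hif1a, just under the threshold, and 0.0152 in Ad-Hif2a.

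Il11 encodes interleukin-11, a cytokine of stromal and bone cells, and was scarce in all groups. Ad-C held 0.828, 1.01 and 0.321 CPM (15, 18 and 6 reads), Ad-Hif1a 3.97, 2.73 and 2.11 CPM, and Ad-Hif2a 5.07, 2.46 and 6.55 CPM. Both vector groups lay above Ad-C and overlapped each other. Il11 rose by 2.69 on the log2 scale in Ad-Hif2a (SE 0.54, adjusted p = 0.0165), and in Ad-Hif1a its log2 fold change of 2.00 (SE 0.53) missed the threshold at an adjusted p of 0.0541. The Ad-Hif2a call was lost without Ad-C replicate 1 (adjusted p = 0.104), Ad-C replicate 3 (0.0868) or Ad-Hif2a replicate 1 (0.0578), and the Ad-Hif1a difference passed without Ad-Hif1a replicate 3 (0.0431), Ad-Hif2a replicate 2 (0.0408) or Ad-Hif2a replicate 3 (0.000952).

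Clcf1, the cardiotrophin-like cytokine, was at 1.55, 2.24 and 2.51 CPM in Ad-C, 3.40, 3.02 and 4.22 CPM in Ad-Hif1a and 5.48, 5.37 and 7.72 CPM in Ad-Hif2a. The ranges did not overlap between any groups. Clcf1 rose by 1.55 on the log2 scale in Ad-Hif2a (SE 0.23, adjusted p = 0.00457). For Ad-Hif1a the log2 fold change of 0.76 (adjusted p = 0.0782, SE 0.23) missed the threshold, which it passed once Ad-Hif2a replicate 3 was left out of the shared fit (adjusted p = 0.0249).

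**Figure D1:**
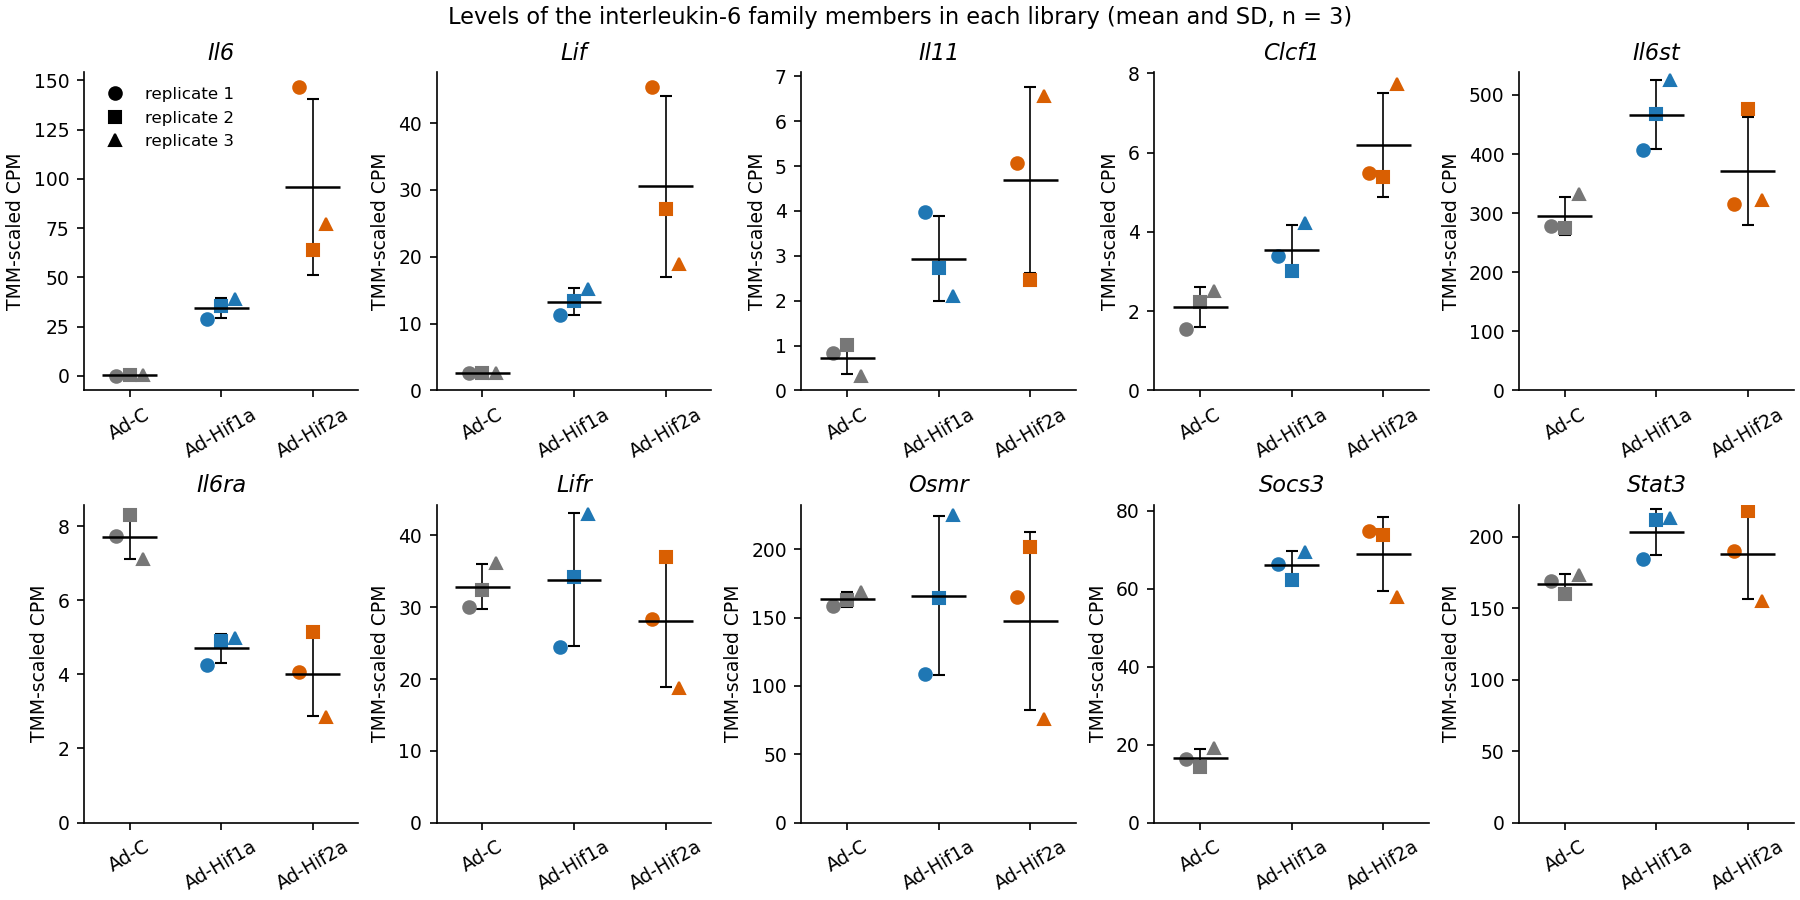
TMM-scaled CPM of the 10 members in each library (vertical axis from 0, 1 panel per gene, marker shape gives the replicate number), with the mean as a line and the SD as a bar (n = 3). The 4 ligands and Socs3 sit above Ad-C in every vector library, and Ad-Hif2a replicate 3 is the lowest library for Osmr and Lifr.

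The receptor chains showed no common direction. None of the 4 passed the test in Ad-Hif1a, and in Ad-Hif2a 1 of 4, Il6ra, fell. Their median log2 fold change was 0.02 in Ad-Hif1a and -0.20 in Ad-Hif2a, beside 0.01 and 0.01 over all genes tested, whereas the median over the 4 ligands was 2.19 and 3.10. Over the 4 other family ligands tested, which are not members, it was -0.06 and -0.13.

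Il6ra encodes the ligand-binding chain for interleukin-6, which is made by leukocytes and hepatocytes and also exists as a soluble form. It was at 7.73, 8.30 and 7.11 CPM in Ad-C, 4.25, 4.89 and 4.97 CPM in Ad-Hif1a and 4.07, 5.14 and 2.84 CPM in Ad-Hif2a. Every vector library lay below every Ad-C library, and the vector groups overlapped. Il6ra fell by 0.95 on the log2 scale in Ad-Hif2a (SE 0.23, adjusted p = 0.0305), and its log2 fold change in Ad-Hif1a was -0.71 (SE 0.22, adjusted p = 0.0934). The Ad-Hif2a call was lost, at adjusted p-values of 0.0693 to 0.167, without any 1 of the Ad-C libraries, Ad-Hif1a replicate 2 or Ad-Hif2a replicate 1, and the Ad-Hif1a difference passed without Ad-Hif2a replicate 3 (adjusted p = 0.00979). Among the 14 macrophage markers, 8 fell and none rose in Ad-Hif1a (5.22% of all genes fell), and 7 fell and none rose in Ad-Hif2a (7.72% fell). The sum of the 14 was 1427 to 1594 CPM and 1475 to 1752 CPM, with no marker at 0 in any library. Not all went down: Aif1 had log2 fold changes of 0.29 and 0.77, Cd163 of 0.33 and 0.25 and Adgre1 of -0.21 and -0.02, none of them called. The macrophage falls in Ad-Hif1a numbered 3 when Ad-C replicate 1 or Ad-Hif1a replicate 2 was left out, 4 when it was Ad-C replicate 2, 5 for Ad-C replicate 3 and 11 for Ad-Hif2a replicate 3. Those in Ad-Hif2a numbered 4 when Ad-C replicate 1 was left out. The part of these markers in the Il6ra levels was not tested.

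Il6st encodes gp130, the signaling chain shared by the ligands followed here. It was at 278, 274 and 333 CPM in Ad-C, 408, 467 and 525 CPM in Ad-Hif1a and 316, 476 and 321 CPM in Ad-Hif2a. All Ad-Hif1a libraries were above Ad-C, whereas Ad-Hif2a overlapped both groups. The log2 fold change was 0.66 (SE 0.19, adjusted p = 0.0779) in Ad-Hif1a and 0.32 (SE 0.19, adjusted p = 0.272, 95% interval -0.14 to 0.78) in Ad-Hif2a. Without Ad-Hif2a replicate 3 both passed, at 0.65 (adjusted p = 0.00285) and 0.49 (adjusted p = 0.0373), and without Ad-Hif2a replicate 2 the Ad-Hif1a difference passed too (adjusted p = 0.0489).

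Osmr, the oncostatin M receptor, was at 158, 163 and 169 CPM in Ad-C, 109, 164 and 225 CPM in Ad-Hif1a and 165, 202 and 75.7 CPM in Ad-Hif2a. Lifr, the LIF receptor, was at 29.98, 32.4 and 36.2 CPM in Ad-C, 24.5, 34.2 and 42.9 CPM in Ad-Hif1a and 28.3, 37.0 and 18.8 CPM in Ad-Hif2a. For both, the vector libraries lay on either side of the narrow Ad-C range, and Ad-Hif1a replicate 1 and Ad-Hif2a replicate 3 were the lowest of their groups. The log2 fold change of Osmr was 0.01 (95% interval -0.89 to 0.92) in Ad-Hif1a and -0.17 (-1.07 to 0.74) in Ad-Hif2a. That of Lifr was 0.03 (-0.63 to 0.69) and -0.23 (-0.90 to 0.43). With these 2 libraries left out, an alternative chosen after seeing the data, Osmr stood at 0.18 and 0.26 and Lifr at 0.14 and 0.10, and none passed.

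Socs3 encodes the feedback inhibitor that binds gp130 and its kinases. It was at 16.5, 14.2 and 19.03 CPM in Ad-C, 66.4, 62.2 and 69.5 CPM in Ad-Hif1a and 75.0, 73.9 and 58.0 CPM in Ad-Hif2a. Both vector groups lay far above Ad-C and overlapped each other. The rise was 2.00 on the log2 scale in Ad-Hif1a (adjusted p = 0.000957, SE 0.18) and 2.06 in Ad-Hif2a (adjusted p = 0.000682, SE 0.19). Both calls held without any 1 library.

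Stat3, the factor that carries the signal to the nucleus, was at 169, 160 and 173 CPM in Ad-C, 185, 211 and 213 CPM in Ad-Hif1a and 190, 218 and 155 CPM in Ad-Hif2a. The Ad-Hif1a libraries were above Ad-C and the Ad-Hif2a libraries overlapped it. The difference on the log2 scale was 0.28 in Ad-Hif1a (95% interval -0.11 to 0.67, adjusted p = 0.331) and 0.16 in Ad-Hif2a (95% interval -0.23 to 0.55, adjusted p = 0.51).

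In Ad-Hif1a, 3 of the 10 members rose (Il6, Lif and Socs3) and none fell, where 11.3% of all genes tested were called. In Ad-Hif2a, 5 rose (the 4 ligands and Socs3) and 1 fell (Il6ra), where 15.6% of all genes were called. The 3 Ad-C libraries serve as controls in both comparisons. The groups did not overlap for 8 of 10 members in Ad-Hif1a, where 50.4% of all genes did not overlap (25.9% lower), and for 6 of 10 in Ad-Hif2a, where 49.5% did not (25.5% lower). Without Ad-Hif1a replicate 1 and Ad-Hif2a replicate 3, 5 members rose and 1 fell in Ad-Hif1a, and 6 rose and 1 fell in Ad-Hif2a, with 27.6% and 28.7% of all genes called.

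**Figure D2:**
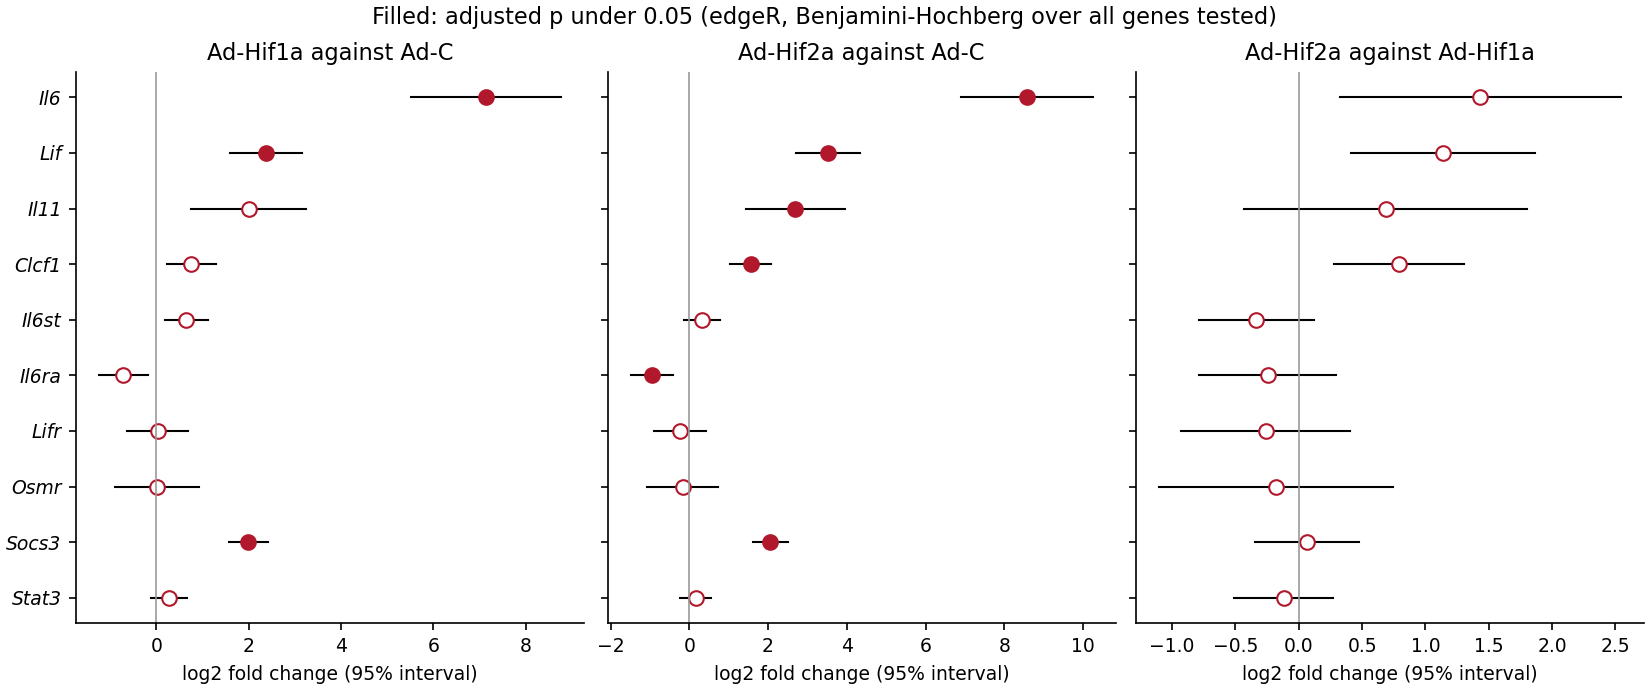
Log2 fold change of each member (points) with its 95% interval (bars) in the 3 comparisons, from the edgeR fit of all 9 libraries, with filled points at an adjusted p under 0.05 and a separate horizontal scale in each panel. Il6, Lif and Socs3 are filled in both comparisons with Ad-C, Il11, Clcf1 and Il6ra only with Ad-Hif2a, and no point is filled between the vectors.

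Between the vectors, the ligands were higher with Ad-Hif2a than with Ad-Hif1a, but no member passed the test. Every Ad-Hif2a library was above every Ad-Hif1a library for 3 members, Il6, Lif and Clcf1, where 6.27% of all genes did not overlap (3.07% higher and 3.21% lower). Their log2 differences were 1.43 for Il6 (SE 0.47, 95% interval 0.33 to 2.54), 1.14 for Lif (SE 0.31, 0.42 to 1.87) and 0.79 for Clcf1 (SE 0.22, 0.28 to 1.30), each with an adjusted p of 1.00. For Il11 the difference was 0.69 (SE 0.47) and the groups overlapped. Of all genes tested edgeR called 0, with 338 (2.35%) at an unadjusted p under 0.05, among them these 3 members, and DESeq2 called 19 genes, none of them a member. In the edgeR test the genes carried by the vectors were not called either, though their groups did not overlap. Hif1a differed by -1.75 (SE 0.25, adjusted p = 0.823) and Epas1 by 1.64 (SE 0.40). The lack of calls here therefore does not show that the vector groups were alike.

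For the receptors the differences between Ad-Hif2a and Ad-Hif1a ran from -0.34 (Il6st) to -0.18 (Osmr), and all 4 overlapped. Socs3 differed by 0.06 (95% interval -0.35 to 0.48) and Stat3 by -0.12 (-0.51 to 0.27). Without Ad-Hif2a replicate 3, Lif passed between the vectors, at 1.49 (SE 0.22, adjusted p = 0.0379), and 12 genes were called in all. Epas1 was also lowest in that library, and whether the amount of vector transcript plays a part in these differences was not tested.

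Per length, Osmr, Il6st and Stat3 were the most abundant members in Ad-C and the ligands Lif, Il11 and Il6 the least. Levels were divided by the length of all exons of the gene, taken from an annotation of GRCm38. That length joins the exons of all its annotated transcripts and can exceed that of the transcript present, so the order depends on it. In Ad-C, Osmr (29.8 CPM per kb), Il6st (26.9) and Stat3 (26.8) led, with each overlapping the next, followed by Socs3 (6.49), Lifr (3.16), Clcf1 (1.14), Il6ra (0.893), Lif (0.637), Il11 (0.346) and Il6 (0.0986). Further neighbours in that order overlapped for Clcf1 and Il6ra and for Il11 and Il6.

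With Ad-Hif1a, Il6st stood highest at 42.5 CPM per kb, Stat3 (32.6), Osmr (30.2) and Socs3 (25.9) overlapped in that order, and Il6 had moved from the last place to the fifth, at 14.2. Lif (3.28) and Lifr (3.26) overlapped, as did Clcf1 (1.92) and Il11 (1.41), and Il6ra was last at 0.544. With Ad-Hif2a the mean of Il6 stood first, at 39.5 CPM per kb, and each neighbour overlapped the next from Il6 through Il6st (33.8), Stat3 (30.1), Socs3 (27.0) and Osmr (26.9). Lif followed at 7.54, then Clcf1 (3.35), Lifr (2.70) and Il11 (2.26), each overlapping its neighbour from Clcf1 to Il11, and Il6ra was again last at 0.465. Per length, the receptor chain for interleukin-6 was thus the least abundant member where its ligand was among the 5 most abundant. In CPM without division by length, Il6ra was also lowest with Ad-Hif2a (4.02). With Ad-Hif1a its 4.70 CPM lay above Clcf1 (3.55) and Il11 (2.94).

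**Figure D3:**
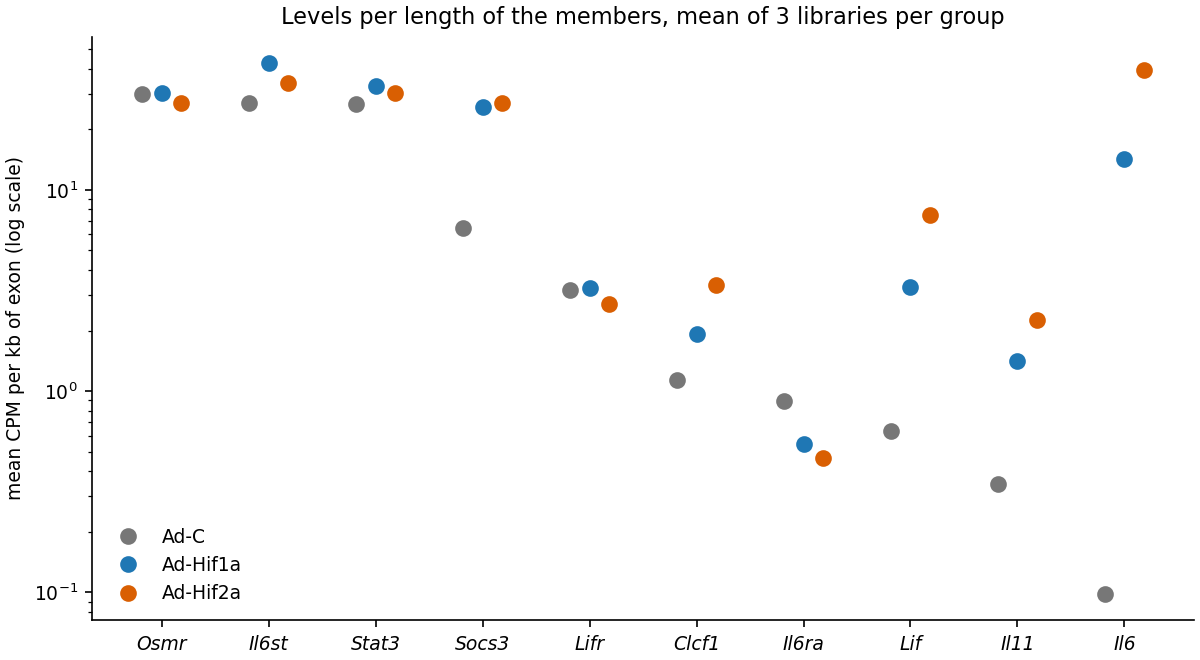
Mean level per length (CPM per kb of exon, log axis, mean of 3 libraries per group, 1 colour per group) of the 10 members in the order of their Ad-C level. Il6 runs from 0.0986 in Ad-C to 39.5 in Ad-Hif2a, whereas Osmr, Il6st and Stat3 stay between 26.8 and 42.5 in all groups.

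The balance of ligand to receptor transcripts within each library followed from these levels. The log2 ratio of Il6 to Il6ra CPM (prior count 2) was -4.76 ± 1.18 in Ad-C, 2.84 ± 0.10 in Ad-Hif1a and 4.48 ± 0.79 in Ad-Hif2a (mean ± SD, n = 3), so reads of the ligand outnumbered those of its receptor chain in each vector library and in no Ad-C library. Il6 to Il6st went from -9.99 ± 1.21 to -3.76 ± 0.05 and -2.02 ± 0.90. The Ad-C means of both ratios depended on the prior count, since Il6 had 0 to 9 reads there: with prior counts of 0.5 and 5, Il6 to Il6ra was -5.63 and -4.03 and Il6 to Il6st was -10.88 and -9.23. Lif to Lifr was -3.61 ± 0.14, -1.32 ± 0.19 and 0.08 ± 0.57, and Lif to Il6st was -6.77 ± 0.16, -5.13 ± 0.04 and -3.66 ± 0.76. For these 4 ratios no groups overlapped. Socs3 to Stat3 was -3.34 ± 0.15 in Ad-C, -1.62 ± 0.14 in Ad-Hif1a and -1.44 ± 0.11 in Ad-Hif2a, where the vector groups overlapped. These ratios compare reads and not molecules, since the transcripts differ in length.

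**Figure D4:**
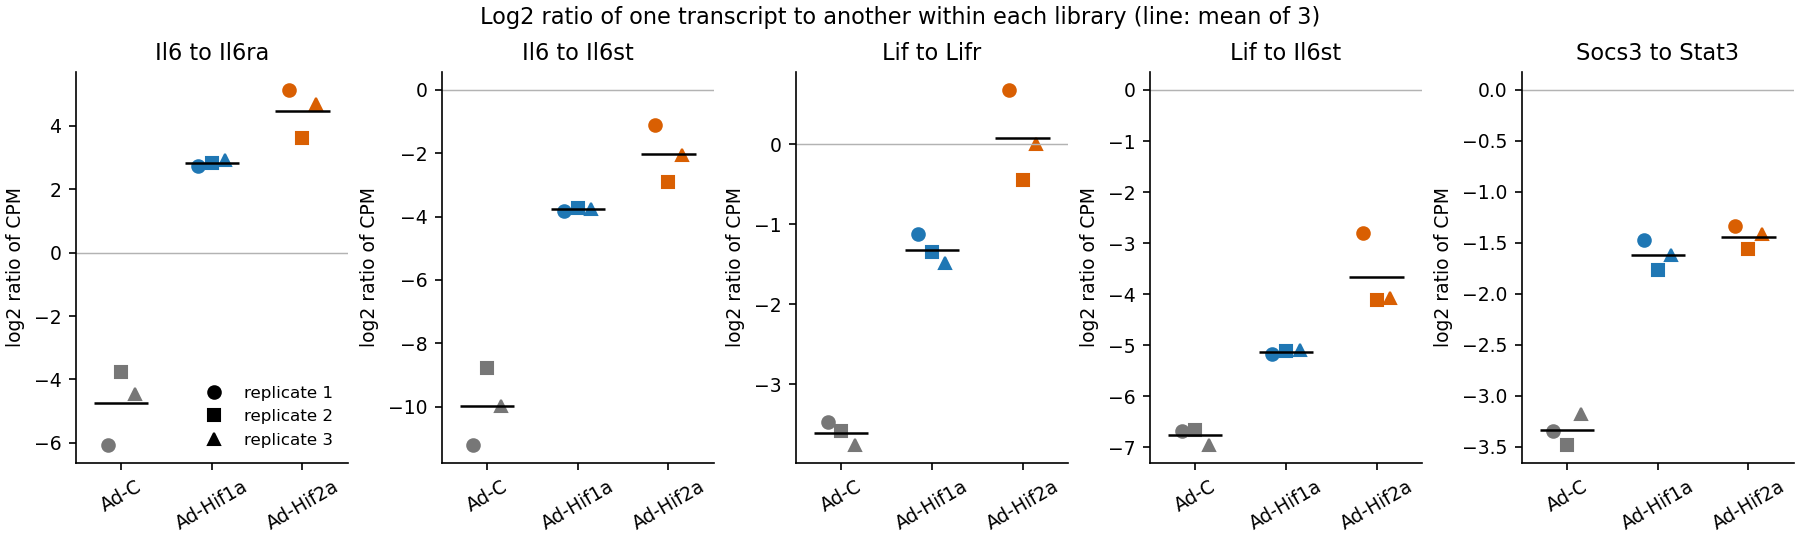
Log2 ratio of the CPM of one transcript to that of another in each library (vertical axis, 1 panel per ratio, marker shape gives the replicate number, line at the mean of 3, grey line at equal reads). Il6 to Il6ra lies below 0 in the Ad-C libraries and above 0 in all 6 vector libraries, and for Socs3 to Stat3 the vector groups overlap.

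The other genes of the pathway were taken from lists, which were chosen with earlier results of these data known. Of 7 other ligands of the family, 4 were tested and none rose or fell in either comparison. Oncostatin M (Osm), the ligand of Osmr, was at 0.772 ± 0.205 CPM in Ad-C, 0.586 ± 0.131 in Ad-Hif1a and 0.691 ± 0.578 in Ad-Hif2a. Ctf1, cardiotrophin-1, was at 4.41 ± 0.179, 4.44 ± 0.684 and 6.12 ± 2.72 CPM. Over these 4 the log2 fold changes ran from -0.39 to 0.42.

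None of 4 other receptor chains passed either. Il11ra1, the chain for interleukin-11, was at 73.0 ± 2.14 CPM in Ad-C, 106 ± 51.3 in Ad-Hif1a and 128 ± 101 in Ad-Hif2a, with adjusted p-values of 0.54 and 0.398. Il31ra had log2 fold changes of -1.53 (adjusted p = 0.118) and -1.72 (adjusted p = 0.0748) from 1.14 CPM in Ad-C.

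Among 9 tested Janus kinases and other STAT factors, 1 rose in Ad-Hif1a, and 2 rose and 1 fell in Ad-Hif2a. The shares of all genes tested that were called were 11.3% and 15.6%. Jak2 rose in both, by 1.10 (adjusted p = 0.0275) and 1.42 (adjusted p = 0.00879), each with an SE of 0.24. The Jak2 call held in 12 of 19 alternative settings in Ad-Hif1a and 16 of 19 in Ad-Hif2a. It was lost in both without any 1 of the Ad-C libraries, and in Ad-Hif1a also without Ad-Hif1a replicate 2, Ad-Hif1a replicate 3 or Ad-Hif2a replicate 2. Jak3 rose by 0.72 (adjusted p = 0.0463) and Tyk2 fell by 0.63 (adjusted p = 0.0381) in Ad-Hif2a, calls that held in 6 and 9 of 19 alternative settings. Jak1, a main kinase on gp130, was at 270 ± 6.57, 245 ± 25.8 and 217 ± 60.6 CPM and was not called.

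Of 12 other inhibitors and phosphatases of the pathway, 2 rose and 1 fell in each comparison, where 11.3% and 15.6% of all genes tested were called. Ptpn1 rose by 1.06 (adjusted p = 0.00564) and 0.92 (adjusted p = 0.00781), and Ptpn2 by 0.72 (adjusted p = 0.0327) and 0.84 (adjusted p = 0.0153). Both encode phosphatases that act on Janus kinases and STAT factors. Ptprc, which encodes the leukocyte phosphatase CD45 and is one of the macrophage markers above, fell by 1.24 (adjusted p = 0.013) and 1.45 (adjusted p = 0.00573). The Ptpn2 call held in 11 and 14 of 19 alternative settings, that of Ptprc in 13 and 18 and that of Ptpn1 in 18 and 16. Without Ad-C replicate 1 none of the 12 was called in either comparison, and omitting Ad-Hif2a replicate 3 gave a result in which 2 rose and 3 fell in Ad-Hif1a and 4 rose and 2 fell in Ad-Hif2a. Socs1, another SOCS inhibitor of Janus kinases, was at 7.66 ± 0.423, 10.1 ± 2.86 and 10.3 ± 3.43 CPM and was not called.

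Of 19 tested genes known to be induced by STAT3, as Socs3 is, 11 rose and 1 fell in each comparison. Over all genes tested, 6.04% rose and 5.22% fell in Ad-Hif1a (11.3% called), and 7.87% rose and 7.72% fell in Ad-Hif2a (15.6% called). The median log2 fold change of the 19 was 1.19 in Ad-Hif1a and 1.51 in Ad-Hif2a against 0.01 over all genes. This list too was chosen with earlier results known, so these numbers describe it and give no independent test of STAT3 activity. Il4ra, a receptor chain for interleukin-4, rose from 49.6 ± 1.49 CPM to 365 ± 40.1 and 358 ± 26.9, by 2.88 and 2.85 on the log2 scale. Bcl3, a nuclear partner of NF-kB, rose by 2.42 and 2.56, Cebpd, an acute-phase transcription factor, by 2.14 and 2.198, and Mt2, a metallothionein, by 4.13 and 4.45, all with adjusted p-values of 0.000631 or less. Ccnd1, cyclin D1, named after its values were seen, fell by 0.98 (adjusted p = 0.00905) and 1.39 (adjusted p = 0.00191), calls that held in 14 and 19 of 19 alternative settings. Without Ad-C replicate 3 or Ad-Hif1a replicate 2, 7 of the 19 rose and none fell in Ad-Hif1a. With single libraries left out, 10 to 14 rose in Ad-Hif2a. Many of these genes also answer to other signals. Without Ad-Hif1a replicate 1 and Ad-Hif2a replicate 3, 13 rose and 2 fell in Ad-Hif1a and 14 rose and 1 fell in Ad-Hif2a.

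Of 10 factors that act on the Il6 gene or its mRNA, 4 rose and none fell in each comparison. Of all genes tested, 6.04% and 7.87% rose (11.3% and 15.6% were called). Zc3h12a, which encodes the nuclease Regnase-1 that degrades Il6 mRNA, rose from 3.59 ± 0.342 CPM to 43.9 ± 3.20 and 55.6 ± 10.3, by 3.62 and 3.94 on the log2 scale. Nfkbiz, a nuclear cofactor of NF-kB needed for Il6 transcription, rose by 3.39 and 3.71, and Arid5a, whose product protects Il6 mRNA from Regnase-1, by 1.72 and 1.62. Fosl1, an AP-1 subunit, rose by 1.15 (adjusted p = 0.0335) and 1.87 (adjusted p = 0.00439). The Fosl1 call in Ad-Hif1a held in 12 of 19 alternative settings, and that in Ad-Hif2a in all 19. Of the 10 factors, 2 rose in Ad-Hif1a without Ad-C replicate 1, Ad-C replicate 3 or Ad-Hif1a replicate 2. Factors with opposite known effects on Il6 mRNA, Zc3h12a and Arid5a, both rose, and Rela, the NF-kB subunit p65, was not called at 63.5 ± 3.29, 66.6 ± 2.28 and 60.7 ± 8.29 CPM.

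Of 5 genes for shedding of receptor ectodomains, 1 rose in Ad-Hif1a, and 1 rose and 1 fell in Ad-Hif2a. Of all genes tested, 11.3% and 15.6% were called. Rhbdf1, a partner of the sheddase ADAM17, rose by 0.85 (adjusted p = 0.0434) in Ad-Hif1a, and its relative Rhbdf2 by 0.82 (adjusted p = 0.0249) in Ad-Hif2a, where Timp3, an inhibitor of ADAM17, fell by 0.81 (adjusted p = 0.0356). These calls held in 11 or 12 of 19 alternative settings and were lost without any 1 of the Ad-C libraries. In the other comparison each gene moved the same way without being called. The log2 fold changes were 0.70 for Rhbdf2 (adjusted p = 0.0524) and -0.77 for Timp3 (adjusted p = 0.0512) in Ad-Hif1a. For Rhbdf1 in Ad-Hif2a it was 0.68 (adjusted p = 0.07). Adam10 had log2 fold changes of -0.53 and -0.69 and was not called.

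**Figure D5:**
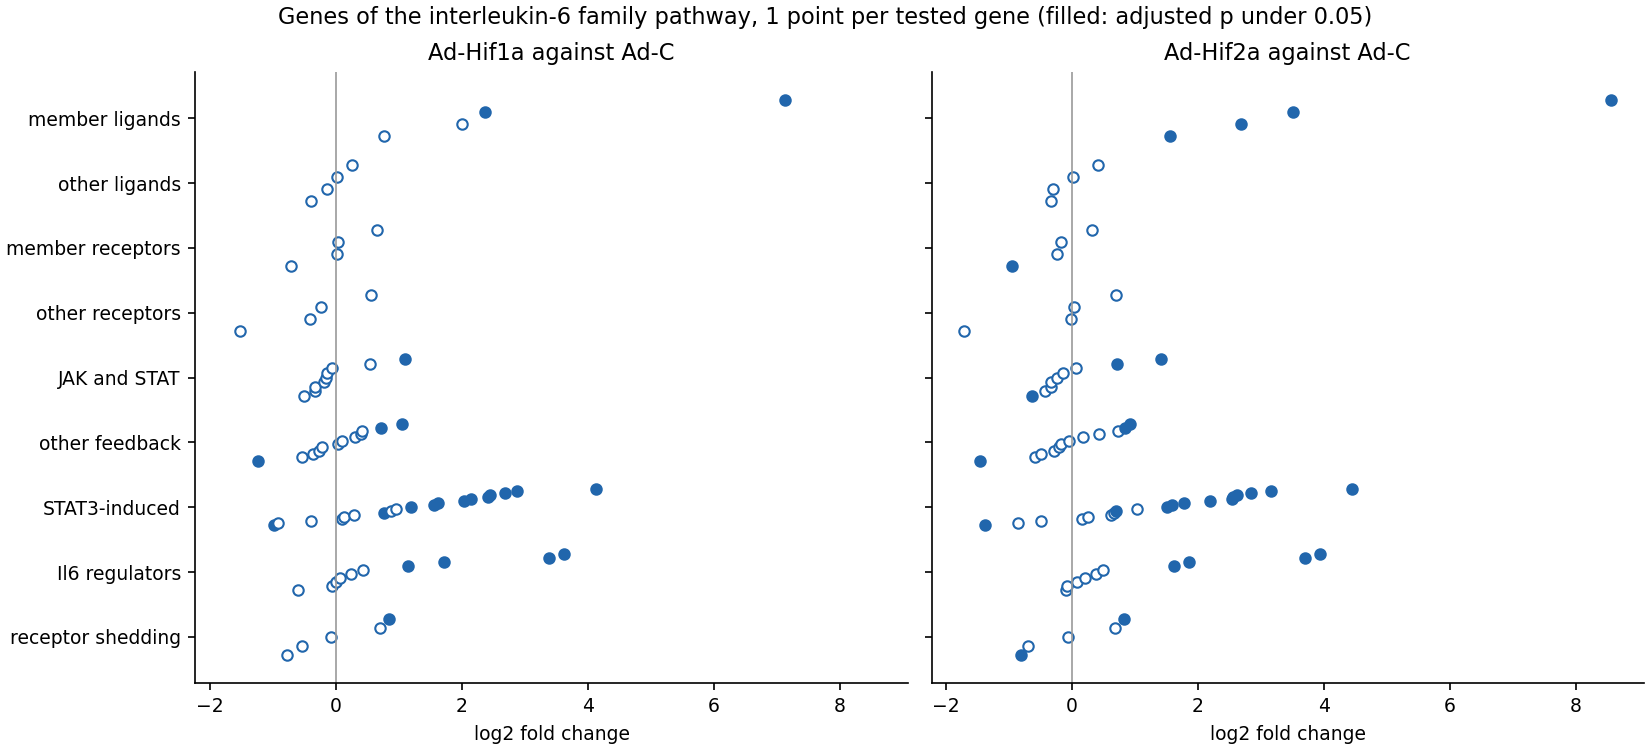
Log2 fold change against Ad-C (horizontal axis) of each tested gene (1 point per gene, 1 line per list) in Ad-Hif1a (left) and Ad-Hif2a (right), with filled points at an adjusted p under 0.05. The filled points of the member ligands reach 7.13 and 8.57, 11 of 19 STAT3-induced genes are filled on the right of 0 in each panel, and no other ligand or other receptor is filled.

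The genes whose log2 CPM ran most like that of 4 members over the 9 libraries were sought among the tested genes with an average log2 CPM over 4, as a description that the group differences and library depth enter. For Il6 they were Mmp8, a collagenase (Pearson r = 0.995, over 7755 genes compared), Il1rl1, the receptor of interleukin-33 (0.995), and Synpo2 (0.993). For Lif they were Nos2, the inducible nitric oxide synthase (0.993), Epas1, the gene of the Ad-Hif2a vector (0.990), and Pvr (0.989). For Socs3 they were Sod3, the extracellular superoxide dismutase (0.996), Ptx3, a pentraxin (0.995), and Slc16a1, a lactate transporter (0.994). Osmr, which overlapped between groups, was most like Parp8 (0.997), Gfpt1, the first enzyme of hexosamine synthesis (0.995), and Dse (0.993). In Ad-C, Mmp8 (0.679 CPM), Synpo2 (6.57), Nos2 (0.312) and Pvr (8.25) lay below a log2 CPM of 4. They passed that filter only through the vector groups, where they were high.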

How the data were processed

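The values are read counts per gene symbol, deposited by the authors as whole numbers without normalization. The CORALL RNA-seq V2 kit was used on total RNA, and the submitters' processing notes name bcl2fastq 2.20.0.422, fastp, STAR, Salmon and GRCm39, with no roles or settings. Strandedness of the counting is not given in the sources used here.

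Tests were run with edgeR 4.0.16 (statmod 1.5.0, limma 3.58.1, R 4.3.3). The 14413 genes kept by filterByExpr were TMM-scaled and fitted over all 9 libraries with group and replicate number, since the study names a paired test. Log2 CPM used a prior count of 2. All p-values of genes are from edgeR's quasi-likelihood test, Benjamini-Hochberg adjusted over all genes tested, and the fit was tested on simulated data. Replicates differed beyond sampling noise in every pair.

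Members and lists were chosen with earlier results of these data known. Beside the members and the vector genes, up to 4 genes per pathway list with the lowest adjusted p were named, as were list genes whose levels bear on a member. A further gene of the ligand list is not reported here. Alternatives were no replicate block, RLE, upper-quartile or no composition factors, DESeq2 1.42.0, omission of the filter, a stricter filter (10 counts in every library), glmTreat with a fold of 1.5, fits of only the 6 libraries of a comparison, leaving out single libraries, and prior counts of 0.5 and 5. Gene lengths came from a GRCm38 annotation and promoters from RefSeq, so no coordinates were taken for the counted genes. Levels of Il11, Clcf1 and Il6ra rest on 6 to 148 reads per library.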

Additional observations from a re-analysis of the deposited data

How the results depend on the processing

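Against Ad-C, Il6, Lif and Socs3 kept their calls in every alternative that could test them (Il6 and Il11 had too few reads for the filter on 10 counts in every library). Of 3 members called in Ad-Hif1a, the count became 5 with no replicate block, 5 with DESeq2, 7 with the 6 libraries compared alone and 6 without the 2 libraries that stood apart (an alternative chosen after seeing the data), and it ran from 3 to 7 with each library left out, reaching 5 without Ad-Hif2a replicate 2 and rising to 7 when replicate 3 of that group was omitted. The added calls were Il11 and Il6st, with Clcf1 and Il6ra in part of these fits. Against 6 called in Ad-Hif2a, leaving out each library gave 4 to 7, with 4 when Ad-C replicate 1, Ad-C replicate 3 or Ad-Hif2a replicate 1 was omitted, and between the vectors it gave 0 to 1. Il6ra in Ad-Hif2a was not called with glmTreat (adjusted p = 0.188) or the 6 libraries alone (adjusted p = 0.0598).

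The direction of Osmr in Ad-Hif1a turned to -0.0082 with upper-quartile factors and -0.018 with the 6 libraries alone. Without Ad-Hif1a replicate 1 and Ad-Hif2a replicate 3, Lifr in Ad-Hif2a was 0.10 and Osmr 0.26, and between the vectors Il11 was -0.068 and Osmr 0.075. With each library left out, Lifr ran from -0.28 to 0.21 in Ad-Hif1a, -0.46 to 0.11 in Ad-Hif2a and -0.49 to 0.10 between the vectors, and Osmr from -0.50 to 0.31, -0.46 to 0.29 and -0.51 to 0.33. Between the vectors Socs3 ran from -0.071 to 0.24 and Stat3 from -0.24 to 0.035. Beyond the libraries named, the cause of these shifts was not tested. Other prior counts turned no ratio but moved those of Il6 in Ad-C. Depth limited Il6 in Ad-C (0 to 9 reads) and Il11 (6 to 90 reads).

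Same-numbered samples deviated from their group means with correlations of -0.57 to 0.10, and different-numbered samples with up to 0.61, so the numbers were not found to pair the samples. Without the replicate block 2379 genes were called in Ad-Hif1a in place of 1624 and 3452 in Ad-Hif2a in place of 2247, and it changed no member call but those of Il11 (adjusted p = 0.0198) and Il6st (adjusted p = 0.0401) in Ad-Hif1a. DESeq2 called 2470 and 3526 genes, glmTreat 748 and 1050, and 4706 and 1705 were called with the 6 libraries alone.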
